A study of Mus musculus with 4 samples.

Results

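The AP-1 and EGR immediate early factors were followed on 4 arrays of mouse mammary epithelial cells (MECs), through 10 genes: Fos, Fosb, Fosl1 and Fosl2 of the Fos family, Jun, Junb and Jund of the Jun family, and Egr1, Egr2 and Egr3. A probe set, the group of short array probes that gives 1 value per array, was a member where its annotation held 1 gene symbol and that symbol was one of the 10. This gave 10 of the 18193 genes with such a probe set, and 16 probe sets of the 45101 on the array, of which 45037 were tested after 64 control probe sets were left out. Of the 10 genes, 6 had 2 probe sets and 4 had 1, and the probe set with the highest mean over the 4 arrays, the leading one, is described first for each gene. The leading probe set was chosen by its mean over these arrays, and the 10 genes were picked with earlier results of the same arrays in view, so their values are a description and no conclusion rests on a test of them.

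The cells came from the mammary glands of young adult female Deaf-1-/- mice, so every group was Deaf-1-deficient by label, and all carried a retrovirus for the E6/E7 proteins of human papilloma virus HPV16, which immortalised them. Clones C1 and E1 were each transduced with an empty puromycin-resistance retrovirus (control) or the same kind of virus encoding Deaf-1, and RNA was taken after 48 hours of selection. Each of the 4 combinations was hybridized to 1 array, so there were 2 arrays per retrovirus and 2 per clone. The design text speaks of a single donor mouse and the methods of mice, and each clone is 1 line. The spread between the 2 arrays of a retrovirus is thus the spread between 2 clones and not between animals. The spread between the 2 arrays of a clone lies within 1 line. The question was which genes differ when Deaf-1 is put back into cells that lack it.

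Fos and Jun proteins are basic leucine zipper factors that pair to form AP-1, which binds the TRE element. Fos proteins typically bind DNA as partners of a Jun protein. EGR proteins are zinc finger factors that bind GC-rich sites. Serum, growth factors and stress induce many of these genes within minutes through MAP kinases and the serum response factor, which binds CArG boxes, and their transcripts are short-lived. In the mammary gland they are known as readouts of growth factor signalling.

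Promoter sequence is shown for members on which the results below turn. RefSeq (GRCm38.p6) promoter windows, from 250 bases before to 50 bases after a gene's start, were matched by symbol for 7 of the 10 genes, in 11 windows, 5 of them of Egr2. No window was used for Egr1, Egr3 or Fosl1, so nothing can be said here of motifs in their promoters. Sequence farther than 250 bases before a start was not searched for any gene. Fos is shown as the member with the largest difference between retroviruses, and Junb as the one with the largest difference between clones. Egr2 is shown as the gene, among the 7 with a window, whose windows held CArG boxes. Capitals mark TTCG or its reverse complement CGAA, the core that DEAF-1 is known to bind, TATAAA, and the CArG box. The windows lie at chr12:85473640-85473939 (plus strand) for Fos, chr8:84978699-84978998 (minus strand) for Junb and chr10:67537619-67537918 (plus strand) for Egr2, and each is written 5′ to 3′ on the gene's strand.
Fos: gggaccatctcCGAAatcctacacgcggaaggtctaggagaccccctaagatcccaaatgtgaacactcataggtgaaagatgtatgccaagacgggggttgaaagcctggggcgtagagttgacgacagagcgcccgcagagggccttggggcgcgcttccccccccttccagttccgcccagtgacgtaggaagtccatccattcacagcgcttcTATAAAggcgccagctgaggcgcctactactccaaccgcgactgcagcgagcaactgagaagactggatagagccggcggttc
Junb: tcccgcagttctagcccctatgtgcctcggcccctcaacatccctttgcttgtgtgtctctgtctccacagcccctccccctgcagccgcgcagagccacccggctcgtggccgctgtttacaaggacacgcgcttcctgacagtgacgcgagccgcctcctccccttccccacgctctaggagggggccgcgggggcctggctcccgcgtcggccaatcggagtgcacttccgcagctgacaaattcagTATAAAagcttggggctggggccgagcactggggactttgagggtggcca
Egr2: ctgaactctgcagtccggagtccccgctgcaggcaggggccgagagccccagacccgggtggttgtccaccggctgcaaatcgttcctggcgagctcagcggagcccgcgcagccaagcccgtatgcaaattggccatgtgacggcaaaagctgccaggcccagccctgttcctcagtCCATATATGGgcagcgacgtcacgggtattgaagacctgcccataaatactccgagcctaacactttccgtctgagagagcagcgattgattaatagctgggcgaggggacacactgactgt
TTCG on either strand was found in 7 of the 11 windows, against 44.7% of all 32851 windows in the table, and 1 copy lay 239 bases before the Fos start. TATAAA was found in 2 of the 11, 33 bases before the start of Fos and at the start of Junb, against 13.6% of all windows. The CArG box was found in 4 of the 11, all of them windows of Egr2 and 3 of them overlapping, against 1.63% of all windows. The TRE (TGACTCA), the CRE (TGACGTCA) and the EGR site (GCGTGGGCG), searched on both strands, were found in 0 of the 11, against 5.2%, 1.79% and 0.612% of all windows. TATAAA can fill the middle of a CArG box, and no other motif searched contains another. These are matches of letters in short windows and say nothing of binding.

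Values are the deposited RMA expression on the log2 scale, and a difference of 1 is a doubling. A value was taken as above background where it exceeded 3.83, the 95th percentile of the means of 44 probe sets for olfactory receptors, genes that these cells should not use. By this level 13 of the 16 member probe sets were above background on all 4 arrays and 3 were above it on none. Levels of different probe sets are not comparable, since probes differ in affinity, so only the same probe set is compared between arrays. A pool of cells per array cannot tell more cells that use a gene from more RNA per cell.

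**Figure D1:**
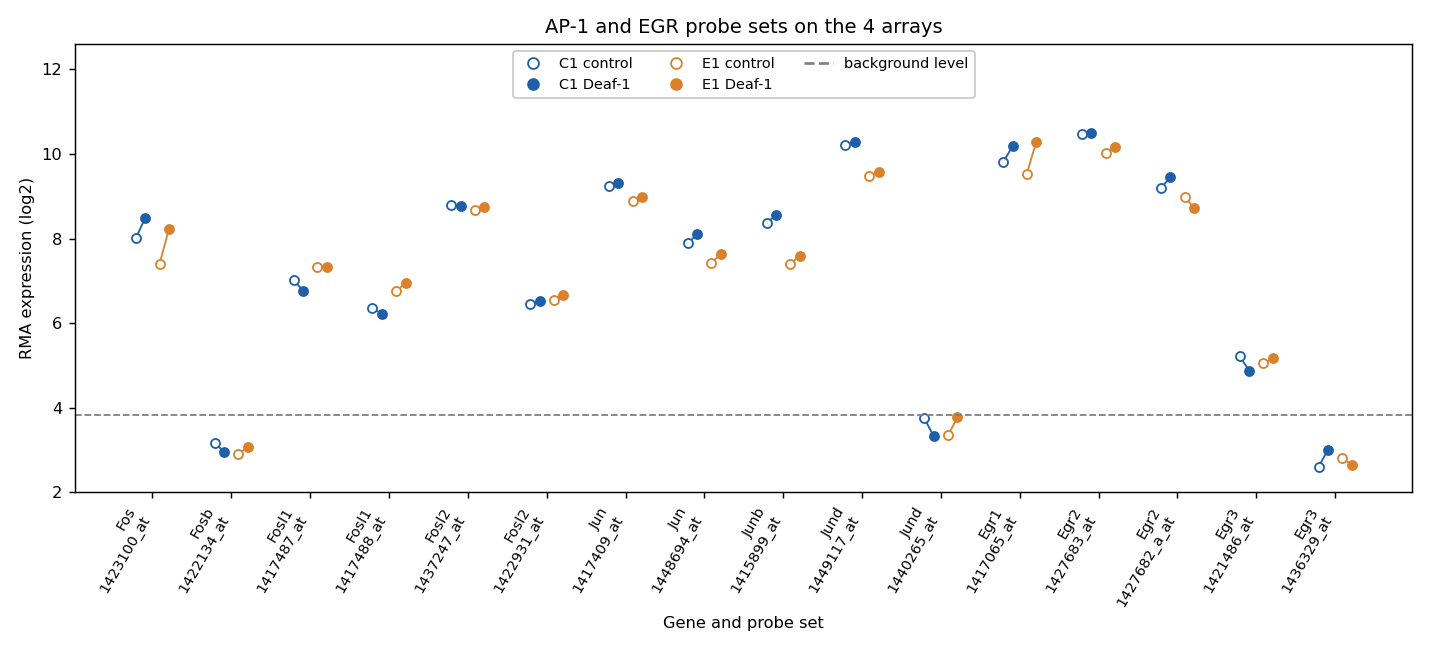
RMA expression (log2, y axis) of the 16 member probe sets (x axis) on the 4 arrays. Open points are control arrays, filled points Deaf-1 arrays, lines join the arrays of a clone (C1 blue, E1 orange) and the dashed line is the background level of 3.83. Fos and Egr1 lie higher on the Deaf-1 arrays of both clones, without overlap with the controls, Junb and the leading Jund probe set lie lower in E1 under both retroviruses, and Fosb and the further probe sets of Jund and Egr3 lie below the dashed line.

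The arrays were alike in overall signal. Their medians lay between 3.77 and 3.87, and 49.2% to 50.8% of probe sets were above background. Correlation across probe sets was 0.994 between the arrays of C1, 0.992 between those of E1 and 0.976 to 0.983 between clones. The Deaf1 probe set stood at 5.01 and 6.73 in C1 and at 4.91 and 6.25 in E1, control and Deaf-1 in turn, a difference of 1.53 (SE 0.21), higher on the arrays labelled Deaf-1. On the control arrays it was above the background level although the cells are labelled Deaf-1-/-, and the position of its probes against the null allele was not analysed here. The epithelial label was not borne out by all of its defining markers. The luminal keratin gene Krt18, Cdh1 (E-cadherin) and Gata3 were below background on all 4 arrays, as were the basal keratin genes Krt14 and Krt17, and Krt8 reached 4.01 at most. Luminal Krt19, at 4.37 to 4.64, and basal Krt5, at 4.45 to 4.74, were above background on all 4 arrays. Of 11 luminal markers 5 had a mean above background, among them Epcam at 5.81 to 6.33, and of 8 basal or myoepithelial markers 4 did, among them Acta2 (smooth muscle actin) at 11.46 to 11.83. All 10 fibroblast markers had a mean above background, with Col3a1 (a fibrillar collagen) at 13.38 to 13.63. Counts for endothelium (2 of 5 measured), immune cells (1 of 6) and adipocytes (1 of 4) were low, and the adipocyte marker was Fabp4, at 2.57 and 3.77 in C1 and 10.59 and 10.56 in E1. The clones thus differ in markers as well, and the part of cell identity in the differences between clones below was not tested.

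Deaf-1 was compared with control first. Fos and Egr1 were the members that stood higher with Deaf-1 by the widest margin, by 0.65 and 0.58 on the log2 scale. None of the 16 member probe sets passed the study's threshold of an unadjusted p of 0.01 in limma, which 0.0111% of all probe sets passed, and every adjusted p was 1. With clone as a block, which pairs the arrays of a clone, none of the 16 passed either, against 0.0244% of all. At an unadjusted p of 0.05, 1 of the 16 passed (Egr1), against 0.433% of all, and with the block 2 of the 16 (Egr1 and Fos), against 0.875%. Earlier results of this same contrast were known when the genes were picked, so nothing is read from these counts.

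Fos, a rapidly induced AP-1 partner, was 8.01 with the control and 8.50 with the Deaf-1 retrovirus in C1, and 7.41 and 8.23 in E1. Both Deaf-1 arrays lay above both control arrays, and the lowest value was the E1 control. That is 0.48 more (1.40-fold) in C1 and 0.82 more (1.77-fold) in E1. The limma difference was 0.65 (SE 0.26, 95% interval -0.04 to 1.34), so without the block the interval included 0. With the block the interval was 0.20 to 1.10, and without the E1 control array the difference was 0.35. Of the 22403 probe sets with a mean above background, 0.0446% had a larger difference. Fos was picked with earlier results of this contrast known, so this rank is a description.

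Egr1, the EGR factor most used as a marker of MAP kinase signalling, was 9.80 and 10.20 in C1 and 9.53 and 10.29 in E1, control first. Again both Deaf-1 arrays were above both controls, and here the clones stood close together under each retrovirus. That is 0.40 more (1.32-fold) in C1 and 0.76 more (1.69-fold) in E1. The limma difference was 0.58 (SE 0.17, 95% interval 0.13 to 1.02), and the block left the interval at 0.12 to 1.03. A larger difference was seen in 0.129% of the probe sets above background, a rank with the same limit as that of Fos.

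Across the 13 member probe sets above background, 2 (those of Fos and Egr1) had both Deaf-1 arrays above both controls, against 5.11% of all probe sets above background. The change had a positive sign in both clones for 8 of the 13, a negative sign in both for none, and opposite signs for 5. Of all probe sets above background, 15.1% were higher in both clones, 21.3% lower in both and 62.9% opposite. The median difference was 0.09 over the 13, beside -0.02 over all probe sets above background. That last median was 0.03 in C1 and -0.07 in E1, small beside the changes of Fos and Egr1 but close in size to those of several other members.

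**Figure D2:**
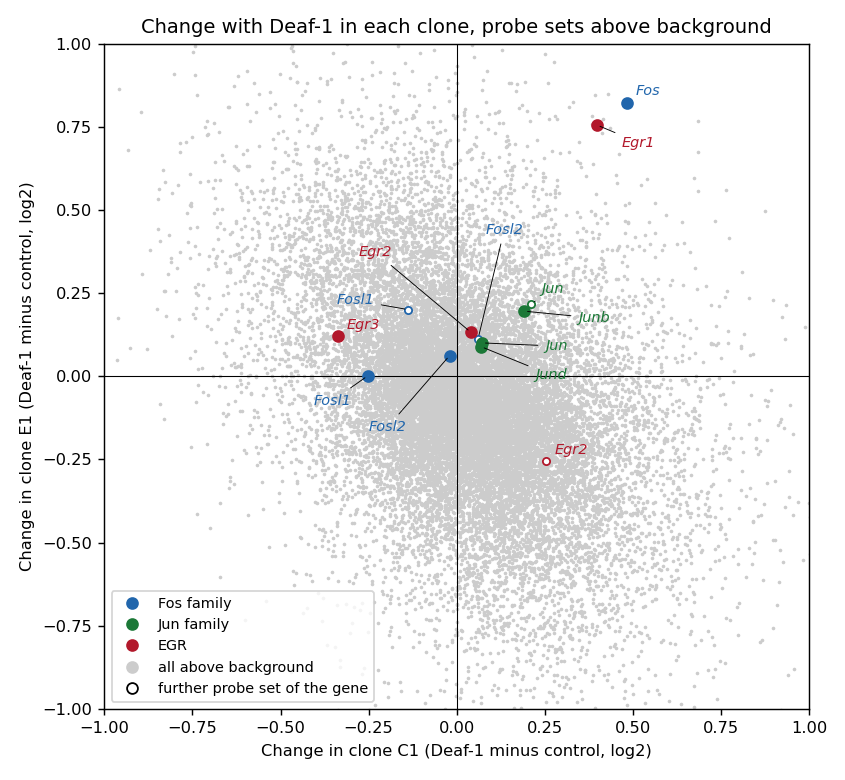
Log2 change with Deaf-1 over control, for C1 on the x axis and E1 on the y axis, 1 array per clone and retrovirus. Grey points are the 22403 probe sets with a mean above background, of which 185 lie outside the axes, and coloured points are the 13 member probe sets, filled for the leading probe set of a gene. Fos (0.48 and 0.82) and Egr1 (0.40 and 0.76) lie apart at the upper right, and the other members lie within the cloud.

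The other Fos family genes differed little between the retroviruses. Fosb, a close relative of Fos that is also rapidly induced, was below background on all 4 arrays, between 2.90 and 3.16, so no level can be given for it. Fosl1 (Fra-1), a Fos protein that lacks the strong activating domain of Fos, was 7.02 and 6.77 in C1 and 7.32 and 7.32 in E1, control first. Its further probe set was 6.36 and 6.22 in C1 and 6.75 and 6.95 in E1. The Fosl1 changes were thus negative in C1 (-0.25 and -0.14) and none or positive in E1 (0.00 and 0.20), and the groups overlapped. Fosl2 (Fra-2) had the narrowest range among leading member probe sets, at 8.80, 8.78, 8.68 and 8.74 on C1 control, C1 Deaf-1, E1 control and E1 Deaf-1. Its further probe set lay between 6.46 and 6.67, with changes of 0.06 and 0.11.

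The Jun family supplies the usual partners of Fos proteins in AP-1, and its leading probe sets all stood slightly higher with Deaf-1 in both clones. Jun was 9.25 and 9.32 in C1 and 8.89 and 8.99 in E1, control first, changes of 0.07 and 0.10. Its further probe set read 7.89 and 8.10 in C1 and 7.42 and 7.64 in E1, changes of 0.21 and 0.22. Junb, which can oppose Jun at some promoters, was 8.37 and 8.56 in C1 and 7.40 and 7.60 in E1, with changes of 0.19 and 0.20. These 2 changes were nearly equal, while the clones themselves lay far apart, so the interval without the block was wide (difference 0.19, SE 0.47, 95% interval -1.06 to 1.44) and with it was -0.19 to 0.58. Jund, the Jun gene that is expressed most constantly in many cells, was 10.22 and 10.28 in C1 and 9.48 and 9.57 in E1, changes of 0.07 and 0.09. Its further probe set was below background on every array, at 3.33 to 3.77.

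Of the other EGR genes, Egr2, known from nerve myelination and immune cells, was 10.46 and 10.50 in C1 and 10.03 and 10.16 in E1, control first, changes of 0.04 and 0.13. Its further probe set went opposite ways, from 9.19 to 9.45 in C1 and from 8.99 to 8.73 in E1. The probe sets of this gene therefore disagree in E1, and for neither did the Deaf-1 arrays separate from the controls. Egr3, itself a target of other EGR and immediate early signals, was 5.22 and 4.88 in C1 and 5.05 and 5.18 in E1, opposite changes of -0.34 and 0.12. Its further probe set was below background throughout (2.61 to 3.01). The Egr1 change therefore had no counterpart of its size in Egr2 or Egr3, although the difference between the genes was not tested.

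The genes whose profiles over the 4 arrays were most like those of Fos and Egr1 were found by the smallest Euclidean distance after centring each profile on its mean, among 11729 other genes with a leading probe set above background. For Fos these were Cep83os, Pik3r5, Serpina3n, Esyt3 and Plekhh1, at distances of 0.26 to 0.30 on the log2 scale, and Egr1 was at rank 15 (distance 0.36). For Egr1 they were Samd11, Camta1, Prox2, Xkr5 and Thsd7b, at 0.033 to 0.168, and Fos was at rank 113. With 4 points per profile such likeness is easily met. Several of these genes passed the background level of 3.83 only by their mean. On the E1 control array Pik3r5 (3.56), Esyt3 (3.51), Samd11 (3.48), Camta1 (3.59) and Prox2 (3.74) were below it. Samd11 was also below it on the C1 control array (3.78), so it passed only through its Deaf-1 arrays. The next nearest members to Fos were Egr2 at rank 363 and Jun at rank 429.

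The clones were compared next, E1 with C1, with retrovirus as a term in the fit. Jun family genes were lower in E1 and Fosl1 was higher, but no member passed an adjusted p of 0.05, which 0.109% of all probe sets passed. At an unadjusted p of 0.01 in limma, 2 of the 16 passed (Junb and the leading probe set of Jund), against 5.38% of all probe sets, and 5 of the 16 passed 0.05, against 14.4%. Of the 22403 probe sets with a mean above background, 2254 passed 0.01 and 5622 passed 0.05, beside 2 and 5 of the 13 members. The arrays of the 2 clones did not overlap for 10 of the 13 member probe sets above background, 7 lower and 3 higher in E1. This was also so for 60.3% of all probe sets above background, so separation of the clones was no mark of these genes. The median absolute difference between clones was 0.42 over the 13 and 0.25 over all probe sets above background.

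Junb had the widest gap, -0.97 with the control retrovirus and -0.96 with Deaf-1. The limma difference was -0.96 (SE 0.14, 95% interval -1.35 to -0.58, adjusted p = 0.122), which is 1.95-fold more in C1. Its adjusted p fell under 0.05 with only probe sets of mean at least 6, after quantile normalization and under other settings. An absolute difference larger than this was seen in 5.39% of the probe sets above background. The leading Jund probe set followed, at -0.73 and -0.71, with a difference of -0.72 (SE 0.14, 95% interval -1.11 to -0.34, adjusted p = 0.156), or 1.65-fold more in C1. Jun was lower in E1 by both probe sets, with differences of -0.35 for the leading and -0.47 for the further one. Thus all 3 Jun genes lay lower in E1 on their leading probe sets under both retroviruses.

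In the Fos family the order was mixed. Fosl1 was the member with higher values in E1, by 0.42 (SE 0.16, 95% interval 0.00 to 0.85, adjusted p = 0.345) for the leading probe set and by 0.57 (SE 0.16, 95% interval 0.12 to 1.02, adjusted p = 0.255) for the further one. Both probe sets had both E1 arrays above both C1 arrays. Fos was lower in E1 by 0.61 with the control and by 0.27 with Deaf-1, but the E1 Deaf-1 array exceeded the C1 control array, so the clones overlapped (difference -0.44, SE 0.16, adjusted p = 0.358). Fosl2 differed by -0.08 and 0.12 for its 2 probe sets, which disagree in sign. Among the EGR genes, Egr2 was lower in E1 by both probe sets (-0.39 and -0.46), and Egr1 (-0.08) and Egr3 (0.07) had overlapping clones.

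**Figure D3:**
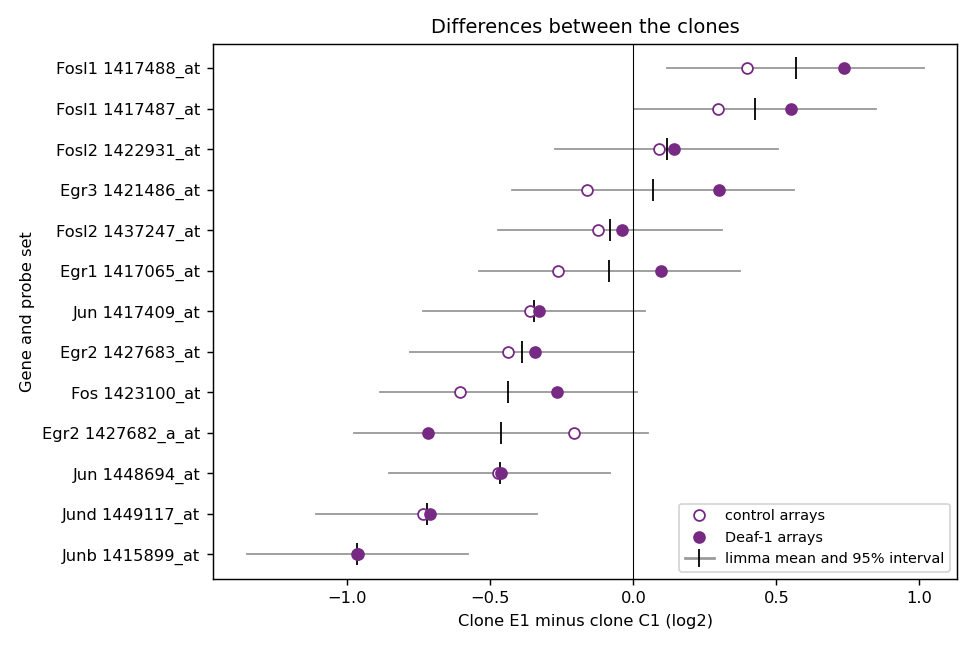
Clone E1 minus clone C1 (log2, x axis) for the 13 member probe sets above background (y axis), for the control arrays (open points) and the Deaf-1 arrays (filled points). Ticks are the limma means and grey bars their 95% intervals. Junb, at -0.97 and -0.96, lies farthest to the left, Fosl1 lies to the right of 0, and the points of Egr1 and Egr3 fall on either side of 0.

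The difference between clones was larger in absolute size than the difference between retroviruses for 10 of the 13 member probe sets above background. The same held for 76.6% of all probe sets above background. Fos, Egr1 and the leading Egr3 probe set were the exceptions among the 13. Whether the change with Deaf-1 differed between clones could not be tested, because 1 array for each combination leaves no residual degrees of freedom. Fos and Egr1 each changed more in E1 (by 0.34 and 0.36), where their control values were lower.

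Genes around these factors were then counted from 7 lists of 179 genes, of which 163 were measured by a probe set with 1 symbol and 144 had a leading probe set with a mean above background. The lists were written with earlier results of these arrays known, and some genes stand in more than 1 list. None of the 163 genes passed an unadjusted p of 0.01 in limma for Deaf-1 against control with or without the block, and none passed 0.05 without it. With the block, Ier2, an immediate early gene, was the 1 gene that passed 0.05. For the clones none passed an adjusted p of 0.05 (the lowest was 0.0529), a count that depended on the setting: it was 34 without the retrovirus term, 28 after quantile normalization and 38 with a prior following intensity. At an unadjusted p of 0.01, 36 of the 163 passed, against 6.95% of the leading probe sets of all genes, and 62 passed 0.05, against 17.9%. Those shares include many genes below background, whereas 144 of the 163 were above it. Among the 11730 leading probe sets above background, 1209 passed 0.01 and 2980 passed 0.05 in limma, a larger share. For comparison, of the leading probe sets of all genes above background, 14.8% were higher with Deaf-1 in both clones, 21.4% were lower in both and 63.2% went opposite ways. Of the 9 leading member probe sets above background, 6 were higher in both and none lower.

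The list of other immediate early genes holds many that share inducing signals with the members. It also holds genes known for other signals, such as Hes1 and Gadd45a. Of 43 above background, 17 (39.5%) were higher with Deaf-1 in both clones, 3 lower in both and 23 opposite, with a median difference of 0.09. Ier2 was highest, at 8.30 and 8.80 in C1 and 7.30 and 7.72 in E1, control first (difference 0.46, SE 0.51). Its change was alike in both clones (0.51 and 0.42), and its clones did not overlap. Egr4, a further EGR family gene, had a mean difference of 0.35, made of -0.59 in C1 and 1.30 in E1. At the low end were Hes1 (-0.16), a Notch-responsive repressor, and Gadd45a (-0.15), a DNA damage response gene. Between the clones Nr4a1, an inducible orphan nuclear receptor, was lowest in E1 (-1.58) with the kinase gene Sgk1 (-1.50), and Gadd45g (1.21) and Id1 (0.95) were highest, with 8 genes lower and 3 higher in E1 at an unadjusted p of 0.01.

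Partners pair with Fos or Jun proteins or share their sites. Of 22 above background, 3 were higher with Deaf-1 in both clones, 7 lower and 12 opposite, with a median of -0.01. The ends were Batf (0.17) and Crem (0.12) against Ddit3 (-0.24) and Mafk (-0.18), bZIP proteins all. Between clones, Maff (-0.93) and Atf3 (-0.71), both stress-inducible, were lower in E1, and Atf5 (1.06) and Maf (0.71) were higher, with 3 genes lower and 1 higher at an unadjusted p of 0.01.

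Kinases and factors that induce the members were counted next. Of 29 above background, 5 were higher with Deaf-1 in both clones, 9 lower, 14 opposite and 1 without a change in C1, with a median of -0.09. Mapk7, the kinase ERK5, was highest (0.32, from 0.25 and 0.39), followed by the adaptor Shc1 (0.17), and the Ras exchange factors Sos2 (-0.25) and Sos1 (-0.21) were lowest, Sos2 from opposite changes of 0.67 and -1.18. Between clones Map3k5 (-1.01) and Map2k2 (-0.62) were lower in E1 and Map2k6 (0.60) and Elk4 (0.40) higher, and Map3k5 was the 1 gene past an unadjusted p of 0.01.

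Feedback inhibitors, the phosphatases and adaptors that switch MAP kinase signals off, were split. Of 18 above background, 5 were higher with Deaf-1 in both clones, 4 lower and 9 opposite, with a median of 0.04. Dusp1, a phosphatase gene that is itself immediate early, was highest (0.29, changes of 0.28 and 0.30), followed by Dusp14 (0.24), and Dusp4 (-0.24) and Dusp5 (-0.13) were lowest. The clones differed far more. Dusp1 was 10.62 and 10.90 in C1 and 8.81 and 9.12 in E1, a difference of -1.80, and Dusp4 differed by -1.99, both with an adjusted p of 0.061, while Dusp10 (0.92) and Rasa1 (0.85) were higher in E1. In all 5 were lower and 4 higher in E1 at an unadjusted p of 0.01.

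Genes reported elsewhere as AP-1 targets were counted as well. Of 16 above background, 1 was higher in C1 and E1 alike with Deaf-1, 5 lower and 10 opposite, with a median of -0.04. Ereg (-0.43), an EGF receptor ligand, and Plau (-0.30), the urokinase gene, were lowest, and Mmp9 (0.22), a gelatinase, and Vegfa (0.19) were highest. Between clones Il11 (-1.87) and Timp1 (-0.99) were lower in E1, and Ccnd1 (2.42, adjusted p = 0.0529), which encodes cyclin D1, and Hmox1 (1.10) were higher, with 3 lower and 4 higher at an unadjusted p of 0.01.

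Of 12 reported EGR targets above background, 4 were higher with Deaf-1 in both clones, 2 lower and 6 opposite, with a median of 0.02. F3 (0.19), which encodes tissue factor, and Vegfa (0.19) were highest, and Cdkn1a (-0.11) and Id3 (-0.11) lowest. Between clones Cdkn1a, the p21 inhibitor of cyclin kinases, was higher in E1 by 1.56 and Thbs1, a matrix protein gene, by 0.83. Sdc1 (-0.45) and Fn1 (-0.37) were lowest, and 3 genes passed an unadjusted p of 0.01, all higher in E1. Both clones were immortalised with E6/E7, which act on p53 and Rb, and the function of p53 and Rb was not measured in either clone.

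Heat shock genes were counted because handling stress can induce them together with Fos and Egr1. None of the 11 was higher in C1 and E1 alike with Deaf-1, 8 (72.7%) were lower in both and 3 opposite, with a median of -0.09. Hspa1b (-0.32) and Hspa1a (-0.30), the inducible Hsp70 genes, were lowest, and Bag3 (0.05) and Dnajb1 (-0.01) were highest. Within each clone most heat shock genes thus read lower on the Deaf-1 array, where Fos and Egr1 read higher, and whether handling differed between the cultures was not tested. Between clones Hspa1b (-1.96) and Hspa1a (-1.87) were lower in E1, while Hspd1 (0.51) and Hspe1 (0.33) were higher. At an unadjusted p of 0.01 in limma 3 genes passed, all lower in E1.

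**Figure D4:**
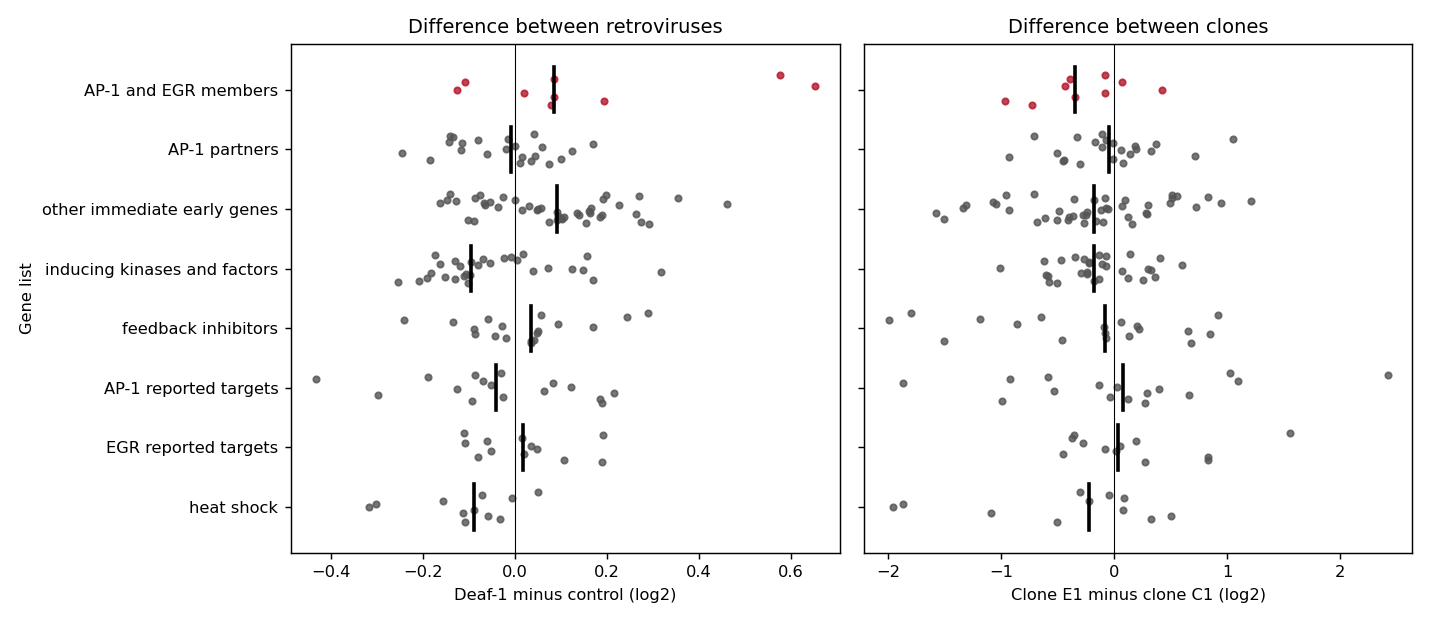
Differences (log2, x axes) of the 9 leading member probe sets (red) and of the genes of 7 related lists (grey), leading probe sets with a mean above background, by list (y axis). The left panel is Deaf-1 minus control and the right panel clone E1 minus clone C1, 1 point per gene, with black bars at the medians. At left Fos (0.65) and Egr1 (0.58) lie beyond every gene of the other lists, whose highest value is 0.46 (Ier2), and at right the points spread more widely in every list. Members and lists were chosen with earlier results of these arrays known, so these places are a description.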

How the data were processed

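RNA of each clone and retrovirus was hybridized to 1 Affymetrix mouse whole-genome array. The log2 values were deposited as RMA output of the authors, in which background is corrected, arrays are given one distribution and each probe set is summarised, and were not centred per gene. Such summaries compress differences of weak probe sets. The submitters' processing notes name RMA and limma without versions or settings. Genome build and annotation version are not given in the sources used here.

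Groups came from the labels, with the arrays titled Puro read as empty retrovirus. Symbols came from the platform annotation, which may be old: 34945 probe sets had 1 symbol, 932 several and 9160 none, and 34741 symbols were matched by gene identifier. No probe set with several symbols held a member. All 45037 probe sets other than AFFX controls were fitted in R 4.3.3 by limma 3.58.1 (lmFit, eBayes), two-sided, with Benjamini-Hochberg adjustment. For Deaf-1 against control the clones were replicates, as in the study. The main fit had no block (2 residual degrees of freedom), and the paper does not say whether its own fit had one. At an unadjusted p of 0.01 in limma, 5 probe sets passed in the main fit, all higher with Deaf-1. With the block 8 passed as higher and 3 as lower. The study's list at that p is longer than 5 and includes genes lower with Deaf-1. The main fit thus did not reproduce that list. For E1 against C1 retrovirus was a term (1 residual degree of freedom). The fits were run on simulated data with known changes, the same independent noise for all probe sets and no other difference between arrays. That run checks the code, and not the error of the unblocked fit where the clones differ. The clone numbers pair the arrays, since same-named arrays are of the same clone line. Deviations from the group mean correlated at 0.54 within clones.

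Members and lists were chosen with earlier results of these data known. Related genes were named by rule: in each list the 2 highest and 2 lowest differences for each comparison over leading probe sets with a mean above background, any gene past a threshold where 5 or fewer passed, and the 5 nearest profiles to Fos and to Egr1. Ier2 at an unadjusted p of 0.05 with the block was singled out after its values were seen, as were the genes whose values on every array are given. Alternatives were the block, 3 filters on low values, 3 further normalizations, other priors, the mean of a gene's probe sets, removal of cross-hybridizing probe sets and leaving out each array. The number of arrays limits precision. Real-time PCR and transgenic mice were not analysed here.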

Additional observations from a re-analysis of the deposited data

Results flagged for a closer look

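Results are listed here where the 2 clones changed in opposite directions with Deaf-1. Values are the E1 change minus the C1 change on the log2 scale, and the difference was not tested, because 1 array per clone and retrovirus allows no test. Opposite signs were found for 62.9% of all probe sets above background, so they are common on these arrays.

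Among the members these were Fosb (0.37, below background), the leading (0.25) and the further (0.34) probe set of Fosl1, the leading probe set of Fosl2 (0.083), the further ones of Jund (0.84, below background) and Egr2 (-0.51), and the leading (0.46) and further (-0.57, below background) ones of Egr3. Fos, Egr1, Jun and Junb were not among them.

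Among the related genes named for their difference between retroviruses the value was 1.89 for Egr4, -1.85 for Sos2 and -1.22 for Plau. It was -0.78 for Crem, 0.62 for Batf, 0.57 for Mmp9, 0.40 for Vegfa and 0.35 for Dusp5. It was 0.33 for Hes1, 0.25 for Cdkn1a, -0.12 for Bag3 and 0.070 for Dnajb1. The mean difference given for these genes in the report averages opposite changes.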

How the results depend on the processing

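No member and no related gene passed an unadjusted p of 0.01 for Deaf-1 against control under any alternative fitted, the clone as a replicate block included (0 of each), and leaving out each replicate also gave 0 for both. Fos and Egr1 stayed positive under every alternative, at 0.35 to 0.96 and 0.44 to 0.71 when 1 array was left out. The other members changed sign when 1 array was left out, which leaves unequal clones in the groups: without the C1 Deaf-1 array (not Fosl2), without the E1 control array (not Fosb or Egr3), and for Fosb also without the C1 control. Their Deaf-1 differences ranged from -0.13 to 0.12 for Fosb, -0.40 to 0.15 for Fosl1, -0.040 to 0.083 for Fosl2, -0.094 to 0.27 for Jun, -0.29 to 0.68 for Junb, -0.29 to 0.45 for Jund, -0.13 to 0.30 for Egr2 and -0.26 to 0.041 for Egr3. Egr3 also turned to 0.0054 with the mean of its probe sets. Members above background higher in both clones numbered 7 of 13 after quantile normalization or median centring (1 lower with the latter) and 8 after cyclic loess, against 18.8%, 11.1% and 19.8% of all probe sets above background. Median centring moved the median E1 change of those probe sets to -0.16.

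The background level was 3.83 by the 95th percentile and 3.56 by the 90th, and 13 member probe sets were above either. Calls between the clones depended on the setting. Members with an adjusted p under 0.05 numbered 2 without the retrovirus term (no replicate block), with probe sets of mean at least 6 or with a prior following intensity, and 1 after quantile normalization or median centring, Junb in all 5 settings and Jund in the first 3. Related genes numbered 34 without the retrovirus term, 11 with probe sets above background, 8 above the 90th percentile level, 36 with a mean of at least 6, 28 after quantile normalization, 28 after median centring, 23 after cyclic loess and 38 with a prior following intensity. The cause was not tested. With the mean of the probe sets the clone difference was 0.017 for Fosl2 and -0.0041 for Egr3. Leaving out 1 array left no residual degrees of freedom for the clones, so only values are given: -0.26 to 0.11 for Fosb, -0.26 to 0.096 for Egr1 and -0.16 to 0.30 for Egr3 spanned 0, and the other members kept their sign. With 4 arrays and 1 per combination, differences near the size of those of Jun or Egr2 cannot be told from the spread between arrays.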
